A study of Mus musculus with 14 samples.

Results

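Accessible chromatin was described at 10 genes of neuronal migration and protrusion, out of 21883 protein-coding genes, in cell lines from mouse small cell lung cancer. The genes were Dcx, Stmn2, Tubb3, Map2, Gap43, Fez1, L1cam, Nrcam, Cntn2 and Dcc, and each was taken with 10 kb on either side. Assay for transposase-accessible chromatin (ATAC-seq) marks open DNA by inserting adapters into it, and a peak is a stretch where such insertions pile up above the local background. Peaks of 14 libraries that shared at least 1 bp were merged into regions, and 145 of 177684 regions lay at the 10 genes. A region was called open in a line when both libraries of that line had a peak in it and closed when neither had, and 100 of the 145 were open in at least 1 line. Regions within 1 kb of either end of a gene were kept apart from those inside or flanking it.

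The study compared Nfibf/f lines with RPR2 lines, 2 libraries per line. The 4 Nfibf/f lines, labelled RPR2;Nfibf/f, comprised 1398P2 and 1399P1, grown from lung tumors, together with 1398M1 and 1399M4, grown from liver metastases. The 3 RPR2 lines were 1373M1 from a liver metastasis and 12N1G and N2N1G from lymph node metastases. In this field RPR2 is shorthand for tumors that lack Rb1, Trp53 and Rbl2, all of them tumor suppressors, and all 7 lines carry that name, while Nfibf/f is written for floxed, conditional copies of Nfib, the gene of the transcription factor NFIB. How and in which cells the alleles were recombined is not given in the sources used here, and animal ages were not used here. The title of the series asks which routes to metastasis need NFIB. Liver metastases were the only tissue with lines of both genotypes. The line was the unit of every test except a fit of libraries given at the end. Whether 1398M1 and 1398P2, or 1399M4 and 1399P1, came from the same animal is not known here. Nothing in the labels says that a line was cultured separately for each library, so the difference between libraries of a line could be technical. In the tests on lines, p-values measure only the spread between the lines.

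A migrating neuron extends a leading process, pulls its nucleus along microtubules and reads adhesion and guidance cues at the growth cone. Dcx, Stmn2, Tubb3 and Map2 encode tubulin or proteins that bind it. Gap43 and Fez1 act in the growth cone and in axonal transport, L1cam, Nrcam and Cntn2 are adhesion molecules of the immunoglobulin family, and Dcc is a receptor for netrin. Small cell lung cancer is a neuroendocrine tumor in which neuronal genes are commonly expressed. Accessibility at a gene is not a measure of its RNA.

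Libraries held 65009 to 84220 peaks, apart from 33558 in replicate 2 of 1398P2. The background floor, a measure of depth, was 0.507 to 1.134 fragments per bp in Nfibf/f libraries and 0.632 to 0.803 in RPR2 libraries, with 0.507 in that same replicate of 1398P2. The neuroendocrine markers Insm1, Chga, Chgb, Syp, Uchl1, Dll3 and Ncam1 each had an end peak in all 14 libraries. Alb, Afp and Cyp3a11 of hepatocytes, Ptprc of blood cells and Pdgfra and Pecam1 of stroma had none in any library, while the endothelial marker Cdh5 had one in 0 of 8 Nfibf/f and 5 of 6 RPR2 libraries. Not every marker of another cell type was closed, since Apoa1 of hepatocytes, Spi1 of blood cells, Col1a1 and Kdr of stroma and Sftpc, Foxj1 and Nkx2-1 of lung epithelium had one in all 14. Ttr had one in 3 of 8 Nfibf/f and 2 of 6 RPR2 libraries, Cd3e in 3 and 0, Lyz2 in 8 and 4, Scgb1a1 in 7 and 6 and Ager in 1 and 0. Cdh5 also passed the test on region number described below, with 1.5 ± 0.577 regions in Nfibf/f lines (SD, n = 4) and 5.17 ± 0.289 in RPR2 lines (SD, n = 3), or -1.60 ± 0.22 (SE) on the log2 scale at a limma adjusted p = 0.0248. That test took genes averaging 3 or more regions over all lines, so Cdh5 was tested only because of its RPR2 lines. The 5 fibroblast and endothelial markers summed to 11 to 16.5 regions per Nfibf/f line and 19 to 20 per RPR2 line, and the part of such cells in the results was not tested. Nfib itself kept an end peak in all 8 Nfibf/f and all 6 RPR2 libraries, which does not show whether the allele was deleted. It held 6.5 to 16 regions per Nfibf/f line and 15.5 to 21 per RPR2 line (limma adjusted p = 0.0827). Rb1, Trp53 and Rbl2 had an end peak in all 14 libraries too, which likewise does not show whether they were deleted. Libraries of the same line shared 69.1% to 76.6% of their regions without the short list, and 12N1G and N2N1G, though labelled as separate lines, shared 70.5% to 73.6%, against 40.9% to 60.6% for other lines of the same genotype.

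RefSeq promoter windows (GRCm38.p6) of 300 bases, from 250 before to 50 after an annotated start, were at hand for 7 of the 10 genes, 11 windows in all. The 4 shown are those the comparison turned on: Dcx, whose start had a peak in RPR2 libraries alone, an upstream and a downstream start of Fez1 that differed from each other, and Tubb3, whose start had a peak in every library. Capitals mark each match to TTGGC or its reverse complement, the core of the site bound by NFI proteins, the family of NFIB. They lie at chrX:143933170-143933469 on the minus strand, chr9:36821641-36821940 and chr9:36832490-36832789 on the plus strand, and chr8:123411303-123411602 on the plus strand.
Dcx: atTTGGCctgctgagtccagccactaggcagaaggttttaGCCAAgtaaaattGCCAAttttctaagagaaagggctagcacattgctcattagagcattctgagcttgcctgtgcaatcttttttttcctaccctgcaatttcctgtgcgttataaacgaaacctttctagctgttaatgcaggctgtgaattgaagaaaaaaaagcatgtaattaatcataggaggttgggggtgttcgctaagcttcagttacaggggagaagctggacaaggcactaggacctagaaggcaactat
Fez1 upstream start: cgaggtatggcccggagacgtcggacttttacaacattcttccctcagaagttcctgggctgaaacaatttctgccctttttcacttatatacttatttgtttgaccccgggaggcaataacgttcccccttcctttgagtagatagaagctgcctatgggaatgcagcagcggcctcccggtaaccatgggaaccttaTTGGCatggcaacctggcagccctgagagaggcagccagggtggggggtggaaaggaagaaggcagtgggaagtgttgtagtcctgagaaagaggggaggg
Fez1 downstream start: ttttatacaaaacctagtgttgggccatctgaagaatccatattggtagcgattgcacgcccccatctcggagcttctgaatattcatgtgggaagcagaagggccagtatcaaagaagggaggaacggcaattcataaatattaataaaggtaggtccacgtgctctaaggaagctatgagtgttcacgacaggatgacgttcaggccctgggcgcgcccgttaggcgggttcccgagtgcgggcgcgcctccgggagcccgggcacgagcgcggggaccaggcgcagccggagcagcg
Tubb3: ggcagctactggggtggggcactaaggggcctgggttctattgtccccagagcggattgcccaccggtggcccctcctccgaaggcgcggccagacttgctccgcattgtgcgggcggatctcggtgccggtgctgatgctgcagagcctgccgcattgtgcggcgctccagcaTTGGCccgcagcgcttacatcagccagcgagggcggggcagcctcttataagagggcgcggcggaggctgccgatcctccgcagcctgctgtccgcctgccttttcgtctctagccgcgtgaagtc

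These windows differ in base composition. The Dcx window held 3 CpG dinucleotides at 43.0% GC and the upstream Fez1 window 8 at 53.0% GC. The downstream Fez1 window held 23 at 56.3% GC and the Tubb3 window 26 at 67.3% GC. Over all 11 windows, the 7 that had a peak in all 14 libraries held 15 to 37 CpG, whereas the 4 with a peak in some libraries (both of Dcx, the upstream one of Fez1 and that of Cntn2) held 3 to 13. Windows of the same gene overlap at Dcx and at L1cam, so the 11 are not independent, and no test was made. Across all 32851 RefSeq windows of the mouse genome, the median was 23 CpG where all 14 libraries had a peak, 8 where some had and 3 where none had. TTGGC was found on either strand in 3 of those 4 windows and in 1 of those 7, numbers too small to set apart. Over all windows the share was 46.7%, with 48.5% where some libraries had a peak, 50.2% where all 14 had and 43.2% where none had. The Dcx window shown had 3 matches, all upstream of the region with peaks, which ends at chrX:143933391. The other Dcx window had none. The full site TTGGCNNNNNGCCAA was in none of the 11 and in 0.0365% of all windows. A match is a string of letters and not evidence of binding.

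**Figure D1:**
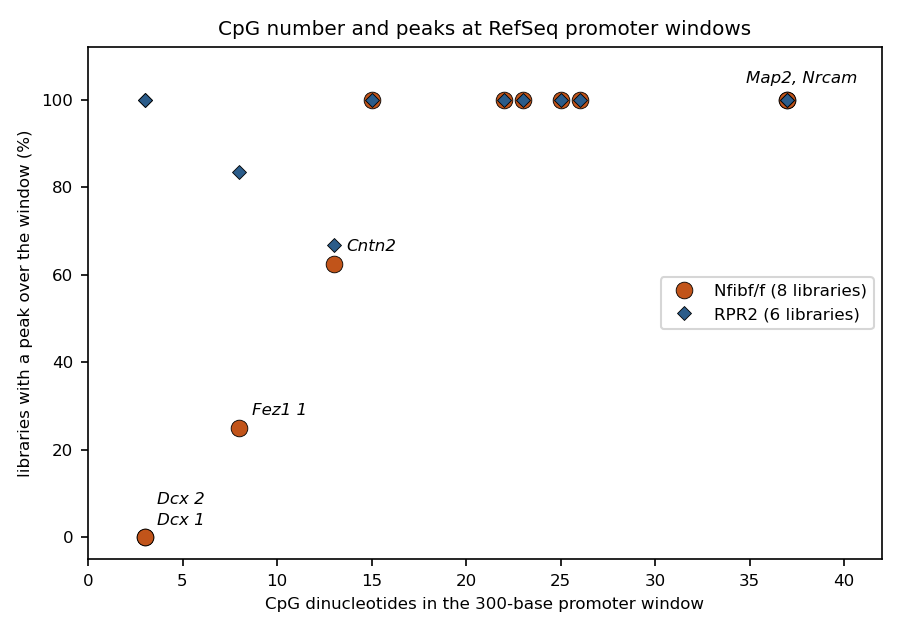
Share of libraries with a peak over each RefSeq promoter window (vertical axis, %) against its number of CpG dinucleotides (horizontal axis), for 11 windows of 7 genes, with circles for the 8 Nfibf/f libraries and diamonds for the 6 RPR2 libraries. Windows with 15 or more CpG sit at the top for both genotypes, and both Dcx windows, with 3 CpG, are at the bottom for Nfibf/f and at the top for RPR2.

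Gene ends fell into a constant and a variable set of 5 genes each. Tubb3, Map2, L1cam, Nrcam and Dcc had a peak within 1 kb of a gene end in all 8 Nfibf/f and all 6 RPR2 libraries, as 50.8% of protein-coding genes did. The variable set was Dcx, with such a peak in 0 of 8 Nfibf/f and 6 of 6 RPR2 libraries, Stmn2 with 2 of 8 and 6 of 6, Gap43 with 2 of 8 and 6 of 6, Fez1 with 2 of 8 and 5 of 6, and Cntn2 with 5 of 8 and 6 of 6. None of the 10 had its end peak more often in Nfibf/f libraries. How often variable ends of all genes lean this way was not counted. The Nfibf/f libraries include the short list of 1398P2, which had no end peak at any gene of the variable set. Dcx was the only one of the 10 with a peak in every library of a genotype and none of the other. Of 16147 genes with an end peak in any library, 23 (0.142%) had the pattern of Dcx and 24 (0.149%) the opposite one. With the looser condition that both libraries of every RPR2 line and of no Nfibf/f line have the peak, Dcx and Stmn2 qualified, beside 0.427% of genes, and none of the 10 had the reverse, beside 0.359%. For either gene the two-sided Fisher exact test over lines gave p = 0.0286, the smallest that 4 against 3 lines allow, so no such pattern could pass an adjustment over genes.

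**Figure D2:**
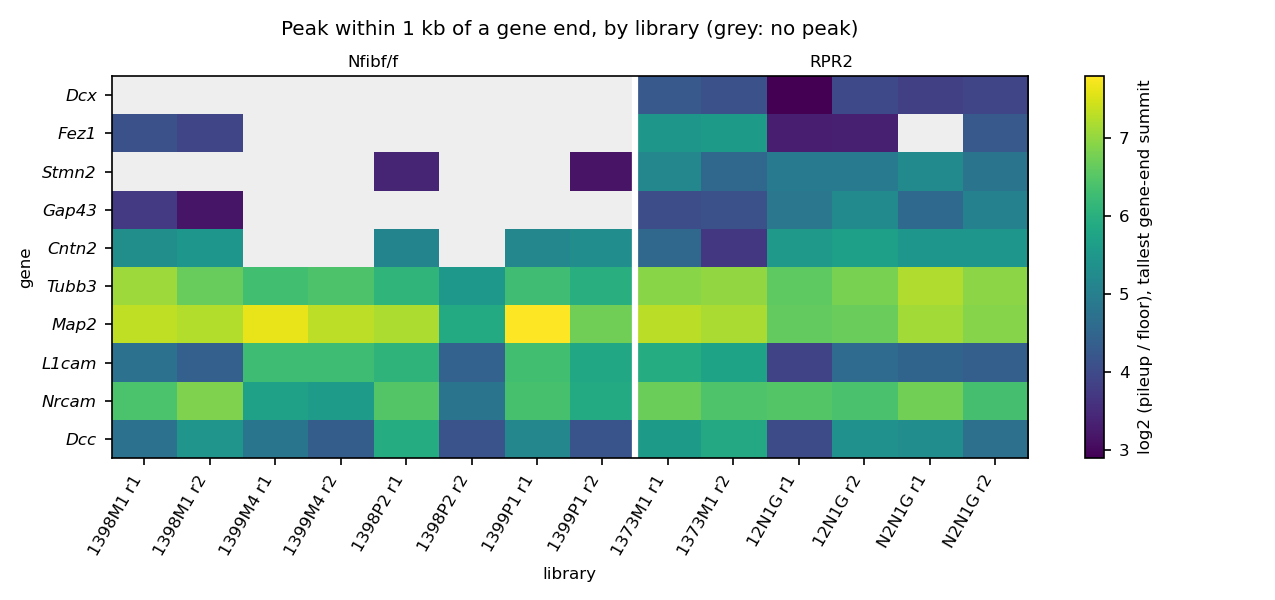
Tallest summit within 1 kb of a gene end for each of the 10 genes (rows) in each library (columns, Nfibf/f on the left and RPR2 on the right), as log2 of the pileup divided by the background floor of the library, with grey for no peak. The lower 5 rows are filled in all libraries, while Dcx is grey in all 8 Nfibf/f libraries and filled in all 6 RPR2 libraries.

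Dcx encodes doublecortin, a protein that stabilises microtubules in migrating neurons. Its start region (chrX:143932780-143933391, GRCm38, minus strand, overlapping both RefSeq promoter windows) had no peak in Nfibf/f libraries. In RPR2 libraries its summit reached 15 and 12 fragments in 1373M1, 6 and 11 in 12N1G and 9 and 11 in N2N1G. These were modest peaks, at a within-library percentile of fold enrichment of 9.4 to 36.8 with a median of 29.8. The lowest summit called anywhere was 4 to 6 fragments in Nfibf/f libraries and 4 or 5 in RPR2 libraries, so the shortest Dcx peak was near the limit of detection and absence in Nfibf/f means absence at that depth. In bulk material, fewer cells with an open site and less opening per cell cannot be told apart. A further region 48.85 kb into the gene (chrX:143884368-143884722) had a peak in 0 of 8 Nfibf/f and 6 of 6 RPR2 libraries, with summits of 8 to 27 fragments and a median of 15.5. Another at chrX:143925675-143926083, 7.52 kb from the start, had a peak in 0 of 8 Nfibf/f libraries and in both libraries of 1373M1 and N2N1G.

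Dcx was not closed throughout in Nfibf/f lines. The region at chrX:143906545-143907204 had a peak in 7 of 8 Nfibf/f and 6 of 6 RPR2 libraries, and that at chrX:143902231-143902791 in 5 of 8 and 6 of 6. The flanking region past the far end (chrX:143847846-143848860) had one in 7 of 8 and 5 of 6. Replicate 2 of 1398P2, the short list, had no peak at Dcx at all. Of the 7 regions open in any line, 3 were open in lines of both genotypes and 4 in RPR2 lines alone. Local background within 500 kb of Dcx was 1.0 to 1.8 times the floor in Nfibf/f libraries and 1.4 to 1.8 times in RPR2 libraries. The median background of chromosome X relative to the autosomes was 0.71 to 0.93 in Nfibf/f libraries and 0.70 to 1.12 in RPR2 libraries, where 1373M1 had 1.06 and 1.12 and the lymph node lines 0.70 to 0.79.

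**Figure D3:**
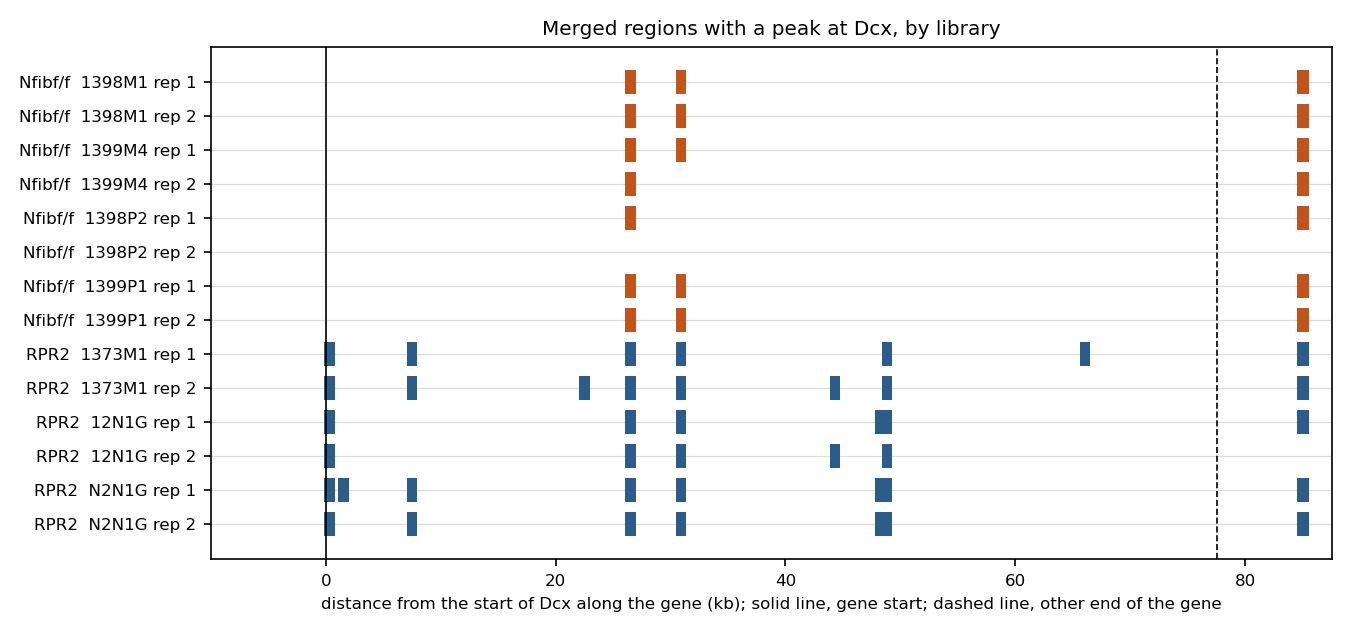
Merged regions with a peak at Dcx in each library (rows, 8 Nfibf/f above 6 RPR2), by distance from the gene start in kb along the gene, with narrow regions widened to 0.9 kb to stay visible. Bars at the gene start and near 48.85 kb are in RPR2 rows alone, while those at 26.52 and 30.89 kb are in rows of both genotypes.

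Fewer regions had a peak at Dcx in Nfibf/f lines than in RPR2 lines. Nfibf/f lines had 3.0 regions in 1398M1, 1.0 in 1398P2, 2.5 in 1399M4 and 3.0 in 1399P1, each the mean of 2 libraries. RPR2 lines had 7.5 in 1373M1, 5.5 in 12N1G and 7.5 in N2N1G. The means were 2.38 ± 0.946 in Nfibf/f (SD, n = 4) and 6.83 ± 1.16 in RPR2 (SD, n = 3). Line values of the genotypes did not overlap, and how many of all genes separate in this way was not counted. On the log2 scale of scaled number plus 0.5, Dcx differed by -1.47 ± 0.25 (SE) between Nfibf/f and RPR2, with a limma adjusted p = 0.0382. The endothelial marker Cdh5 differed in the same direction at -1.60, and its relation to the Dcx difference was not tested. Of 7654 genes tested, 26 (0.34%) were called lower in Nfibf/f and 54 (0.706%) higher. Dcx was the only call among the 7 of the 10 genes that passed the filter of 3 regions on average, and Fez1, Stmn2 and L1cam did not pass it. The filter was applied to the mean over all lines. At 2.38, the Nfibf/f mean of Dcx was under 3, so Dcx was tested only because of its RPR2 lines.

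That call stood close to the threshold. It was lost without replicate 1 of 1398P2 (limma adjusted p = 0.28), which leaves that line with its short list alone, and without the lines 1399M4 (0.0726), 1398P2 (0.0779), 1399P1 (0.0726), 12N1G (0.125) or N2N1G (0.15). Without the short list, replicate 2 of 1398P2, the difference was -1.37 with an adjusted p = 0.0332. With 12N1G and N2N1G counted as 1 line it was -1.51 with an adjusted p = 0.131. In the liver metastasis lines alone, 2 against 1, it was -1.40, and no p is given because RPR2 is then a single line. Regions away from gene ends differed by -1.27 ± 0.27 (SE) at Dcx, with a limma adjusted p = 0.0686, and none of the 6 genes tested there was called, beside 0.509% of 4520 genes.

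**Figure D4:**
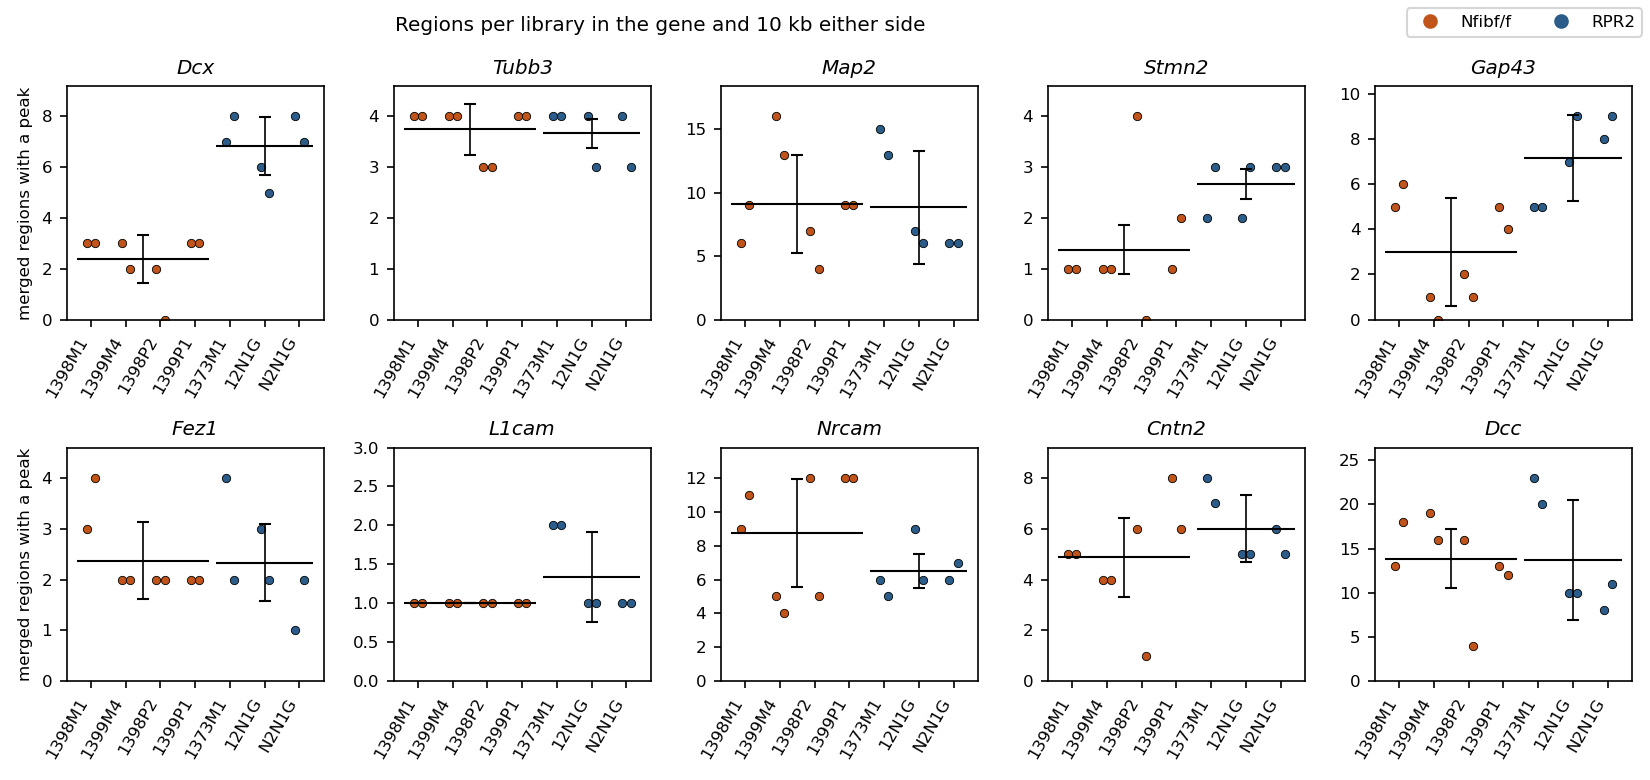
Merged regions with a peak per library for each of the 10 genes, by line, with Nfibf/f lines on the left in orange and RPR2 lines on the right in blue. Points are libraries, horizontal lines are the means of the line values and bars are their SD. The points of the 2 genotypes are apart at Dcx and mixed at Map2 and Dcc, and how many of all genes are apart was not counted.

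Stmn2 encodes stathmin-2, which binds free tubulin and is active in growth cones. The start of this gene could not be read from the gene table, which gives no strand for it, and the lower-coordinate end was the one with peaks (chr3:8509219-8509705). Its summit reached 12 fragments in replicate 1 of 1398P2 and 8 in replicate 2 of 1399P1, and no other Nfibf/f library had a peak. All 6 RPR2 libraries had one, at 14 to 28 fragments with a median of 22.5. A neighbouring region (chr3:8510233-8510676) had a peak in 1 of 8 Nfibf/f and 5 of 6 RPR2 libraries. The next one inside the gene (chr3:8510896-8511775) had a peak in 7 of 8 Nfibf/f and 5 of 6 RPR2 libraries, close to the same share in both genotypes. Its height differed between lines, at 11 to 22 fragments in Nfibf/f libraries, 37 and 35 in 12N1G and 43 and 34 in N2N1G. In 1373M1 it had 12 fragments in replicate 2 and no peak in replicate 1. Stmn2 held 1.38 ± 0.479 regions in Nfibf/f lines (SD, n = 4) and 2.67 ± 0.289 in RPR2 lines (SD, n = 3), too few to be tested.

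Tubb3, the class III beta-tubulin of neurons, had end peaks in all libraries of both genotypes. The region over its start (chr8:123411041-123412052), which also lies at an end of the neighbouring gene Mc1r, reached 23 to 101 fragments in Nfibf/f libraries with a median of 70.5 and 72 to 93 in RPR2 libraries with a median of 83.5. The lowest value belonged to the short list of 1398P2. Ranked among the 17797 regions with a peak in all libraries, the start stood at the 30.9 ± 12.2 percentile in Nfibf/f lines (SD, n = 4) and at 16.8 ± 8.64 in RPR2 lines (SD, n = 3), a difference of 14.2 ± 7.57 (SE) with a limma adjusted p = 0.419. Line 1398P2, the highest at 49.0, had 18.1 in replicate 1 and 79.9 in replicate 2, the short list. A second region 1.35 kb downstream (chr8:123412496-123413319) had a peak in 6 of 8 Nfibf/f and 6 of 6 RPR2 libraries, with none in 1398P2. The region at the far end (chr8:123422243-123423038) had one in all libraries. Region number differed by -0.02 ± 0.12 (SE; limma adjusted p = 0.941).

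Map2 binds microtubules in dendrites. Its start (chr1:66174793-66175785) was among the strong regions of every library, at 30 to 199 fragments in Nfibf/f libraries with a median of 134.5 and 71 to 121 in RPR2 libraries with a median of 87. It stood at the 79.7 ± 10.2 percentile of shared regions in Nfibf/f lines (SD, n = 4) and 77.4 ± 2.74 in RPR2 lines (SD, n = 3; limma adjusted p = 0.89). The region at chr1:66309061-66309584, 134.1 kb inside the gene, had the pattern opposite to Dcx: a peak in 8 of 8 Nfibf/f and 0 of 6 RPR2 libraries. Its summits in Nfibf/f were 8 and 17 fragments in 1398M1, 77 and 38 in 1399M4, 39 and 9 in 1398P2 and 55 and 38 in 1399P1. Its percentile of fold enrichment within each Nfibf/f list was 20.6 to 97.7 with a median of 84.5. The Dcx start held 9.4 to 36.8 in RPR2 lists with a median of 29.8, so the ranges overlapped. Lists differ in length, so these percentiles are a description alone. A region at chr1:66321648-66322207 had a peak in 1 of 8 Nfibf/f and 6 of 6 RPR2 libraries, so the gene held differences in both directions. A shared region at chr1:66228074-66228691 stood at the 79.4 ± 9.1 percentile in Nfibf/f lines (SD, n = 4) and 59.2 ± 2.93 in RPR2 lines (SD, n = 3), a difference of 20.2 ± 6.22 (SE) with a limma adjusted p = 0.194.

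Over all 10 genes, regions of a single genotype were few. The 100 open regions included 2 (2%) open in every RPR2 line and closed in every Nfibf/f line, both at Dcx, beside 1.21% of the 119359 open regions of the genome. They included 1 (1%) with the opposite pattern, the Map2 region, beside 0.639%. Of the 100, 48 were open in lines of both genotypes, beside 49.3% of open regions of the genome. There were 25 open in Nfibf/f lines alone, beside 31.7%, 27 in RPR2 lines alone, beside 19%, and 31 in a single line, beside 31%. A peak in all 14 libraries was found at 6 of the 14 open gene-end regions (42.9%) and at 4 of the 86 others (4.65%), beside 61.6% and 14.2% at protein-coding genes as a whole, so the higher share at gene ends was general. None of these 10 shared regions passed the rank test, where 3 of 17797 (0.0169%) did, and 2691 had an unadjusted limma p under 0.05.

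Gap43 encodes a membrane phosphoprotein of the growth cone. Its end at the higher coordinate (chr16:42340492-42341088) had a peak of 10 and 9 fragments in 1398M1 and in no other Nfibf/f library. All 6 RPR2 libraries had one, at 13 and 12 fragments in 1373M1, 23 and 26 in 12N1G and 15 and 24 in N2N1G. Every RPR2 value was above both values of 1398M1. The gene held 5.5 regions in 1398M1, 1.5 in 1398P2, 0.5 in 1399M4 and 4.5 in 1399P1, against 5.0 in 1373M1, 8.0 in 12N1G and 8.5 in N2N1G, so 1398M1 overlapped the RPR2 range. The log2 difference was -1.47 ± 0.55 (SE) with a limma adjusted p = 0.176, the same size as that of Dcx with a larger error. It was -0.96 without 1399M4 and -1.84 without 1398M1. Inside the gene, the regions at chr16:42275508-42275893 and chr16:42294187-42294939 had a peak in 0 of 8 Nfibf/f libraries and in all 4 libraries of 12N1G and N2N1G, but in neither of 1373M1. The region at chr16:42303335-42304165 had a peak in 4 of 8 Nfibf/f libraries at 7 to 14 fragments and in 6 of 6 RPR2 libraries at 40 to 65. Line 1399M4, from a liver metastasis, had no peak at Gap43 in replicate 2 and 1 in replicate 1.

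Fez1, an adaptor that links cargo to kinesin in axons, differed between its starts. The region over the upstream window shown above (chr9:36821374-36822273) had a peak of 13 and 15 fragments in 1398M1 and none in the other Nfibf/f lines. In RPR2 lines it had 35 and 33 fragments in 1373M1, 8 and 7 in 12N1G, and a peak of 14 in replicate 2 of N2N1G and none in replicate 1. The wide region over the downstream starts (chr9:36832416-36834300) had a peak in all 14 libraries, at 11 to 78 fragments in Nfibf/f with a median of 48 and 43 to 90 in RPR2 with a median of 59.5. It stood at the 47.1 ± 9.0 percentile of shared regions in Nfibf/f lines (SD, n = 4) and 44.5 ± 15.5 in RPR2 lines (SD, n = 3; limma adjusted p = 0.931). Past the far end, a flanking region (chr9:36882069-36882753) had a peak in 8 of 8 Nfibf/f libraries at 9 to 46 fragments and in 1 of 6 RPR2 libraries at 6. Fez1 thus had a region held mostly by either genotype, and its total was 2.38 ± 0.75 regions in Nfibf/f lines (SD, n = 4) and 2.33 ± 0.764 in RPR2 lines (SD, n = 3).

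Among the adhesion molecules, L1cam had hardly more than its start (chrX:73879998-73881502), with a peak in all 14 libraries. The summit reached 20 and 21 fragments in 1398M1, 77 and 49 in 1399M4, 77 and 11 in 1398P2 and 64 and 50 in 1399P1. In RPR2 it reached 47 and 37 in 1373M1, 12 and 17 in 12N1G and 14 and 15 in N2N1G. Lines 1398M1, 12N1G and N2N1G were thus low and the other lines high, apart from the short list of 1398P2, and the genotypes overlapped. Its percentile among shared regions was 37.4 ± 23.0 in Nfibf/f lines (SD, n = 4) and 18 ± 8.21 in RPR2 lines (SD, n = 3; limma adjusted p = 0.468).

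Nrcam, of the same family as L1cam, also had its start (chr12:44328633-44330673) in every library. It ranked at the 10.2 ± 3.74 percentile of shared regions in Nfibf/f lines (SD, n = 4) and 18.4 ± 5.63 in RPR2 lines (SD, n = 3), a difference of -8.18 ± 3.87 (SE) with a limma adjusted p = 0.363. Inside the gene, chr12:44422357-44423295 had a peak in 6 of 8 Nfibf/f and 1 of 6 RPR2 libraries, and chr12:44403449-44404244 in 5 of 8 and 1 of 6, both without 1399M4. Of 14 open regions, 7 were open in Nfibf/f lines alone and 2 in RPR2 lines alone. Region number was 8.75 ± 3.18 in Nfibf/f lines (SD, n = 4), with 4.5 in 1399M4 and 12.0 in 1399P1, and 6.5 ± 1.0 in RPR2 lines (SD, n = 3), which on the log2 scale was a difference of 0.29 ± 0.30 (SE) at a limma adjusted p = 0.637.

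Cntn2, a contactin anchored to the membrane by a lipid, had paired regions at its start. The one over the start (chr1:132542567-132543219) had a peak in 5 of 8 Nfibf/f and 4 of 6 RPR2 libraries and none in 1399M4 or 1373M1. The one just upstream (chr1:132543682-132544151) had a peak in 2 of 8 Nfibf/f libraries, both of 1399P1 at 17 and 21 fragments. It had one in 6 of 6 RPR2 libraries, at 18 and 9 fragments in 1373M1, 28 and 35 in 12N1G and 25 and 31 in N2N1G. Inside the gene the order was mixed. The region at chr1:132533430-132534666 had a peak in 8 of 8 Nfibf/f and 3 of 6 RPR2 libraries, and chr1:132518373-132519269 in 2 of 8 and 6 of 6. Region number differed by -0.34 ± 0.20 (SE; limma adjusted p = 0.367).

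Dcc, the netrin receptor of growing axons, had the longest gene of the 10 and the most regions, 44 in any library and 31 open in at least 1 line. Its end region with peaks (chr18:72350475-72351375) was in all 14 libraries, at the 11.1 ± 7.07 percentile of shared regions in Nfibf/f lines (SD, n = 4) and 10.4 ± 2.0 in RPR2 lines (SD, n = 3; limma adjusted p = 0.956). The region at chr18:72256298-72257764 had a peak in 7 of 8 Nfibf/f libraries, at 8 to 43 fragments, and in 0 of 6 RPR2 libraries. It missed the single-genotype pattern because replicate 1 of 1398M1 had no peak there. The region at chr18:71975650-71976244 had a peak in 2 of 8 Nfibf/f and 6 of 6 RPR2 libraries. Region number differed by 0.04 ± 0.29 (SE; limma adjusted p = 0.956).

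At Map2 and Dcc the spread between lines of a genotype exceeded the difference between the genotype means. Map2 held 7.5 regions in 1398M1, 5.5 in 1398P2, 14.5 in 1399M4 and 9.0 in 1399P1, against 14 in 1373M1, 6.5 in 12N1G and 6.0 in N2N1G. Dcc held 15.5 in 1398M1, 10.0 in 1398P2, 17.5 in 1399M4 and 12.5 in 1399P1, against 21.5 in 1373M1, 10.0 in 12N1G and 9.5 in N2N1G. The highest line of each genotype was 1399M4 or 1373M1 at both genes, each from a liver metastasis. The third liver line, 1398M1, was lower than 1399M4 at both. RPR2 lines from the liver and from lymph nodes cannot be told apart from the lines themselves, as only 1 came from the liver.

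Over the 7 tested genes, 3 differences were positive and 4 negative, with a median of -0.022, the same as the median of -0.022 over all 7654 genes tested. Of 47 further genes of microtubules, growth cones, adhesion, guidance and migration signals, 37 were tested and 0 were called, with 15 positive and 22 negative differences and a median of -0.063. At an unadjusted limma p under 0.05 there were 10 of these 37 (and 2 of the 7), beside 21.3% of all genes tested. The 34 of the 47 with an end peak in all libraries included 11 of 12 microtubule genes, and none of the 47 had a gene-end pattern of a single genotype. Stmn4, a relative of Stmn2, had an end peak in 2 of 8 Nfibf/f and 6 of 6 RPR2 libraries, the counts seen at Stmn2 and Gap43; it was singled out after its values were seen.

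None of the pathway genes with the largest differences passed the test. The cell adhesion molecules Ncam2 (0.92 ± 0.21, SE; limma adjusted p = 0.0639), Ncam1 (0.76 ± 0.25; limma adjusted p = 0.138) and Cntn1 (0.63 ± 0.31; limma adjusted p = 0.284) had the largest positive values. Reln, the secreted guide of migrating cortical neurons, had the largest negative one. It held 2.75 ± 0.957 regions in Nfibf/f lines (SD, n = 4) and 9.33 ± 4.37 in RPR2 lines (SD, n = 3), where 1373M1 was lowest with 4.5, or -1.58 ± 0.32 (SE) on the log2 scale, at a limma adjusted p = 0.0553. The difference was -0.63 in the liver metastasis lines alone and -2.01 without 1373M1, where the adjusted p by limma was 0.00503. That leaves 12N1G and N2N1G as the RPR2 lines, both from lymph nodes and sharing 70.5% to 73.6% of regions. Genotype and tissue then cannot be told apart. At 2.75 regions, the Nfibf/f mean of Reln was under the filter of 3, so Reln was tested only because of its RPR2 lines. Next came Ntn1, the netrin that Dcc binds (-0.81 ± 0.23, SE; limma adjusted p = 0.102), and Unc5a, another netrin receptor (-0.59 ± 0.18, SE; limma adjusted p = 0.116).

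**Figure D5:**
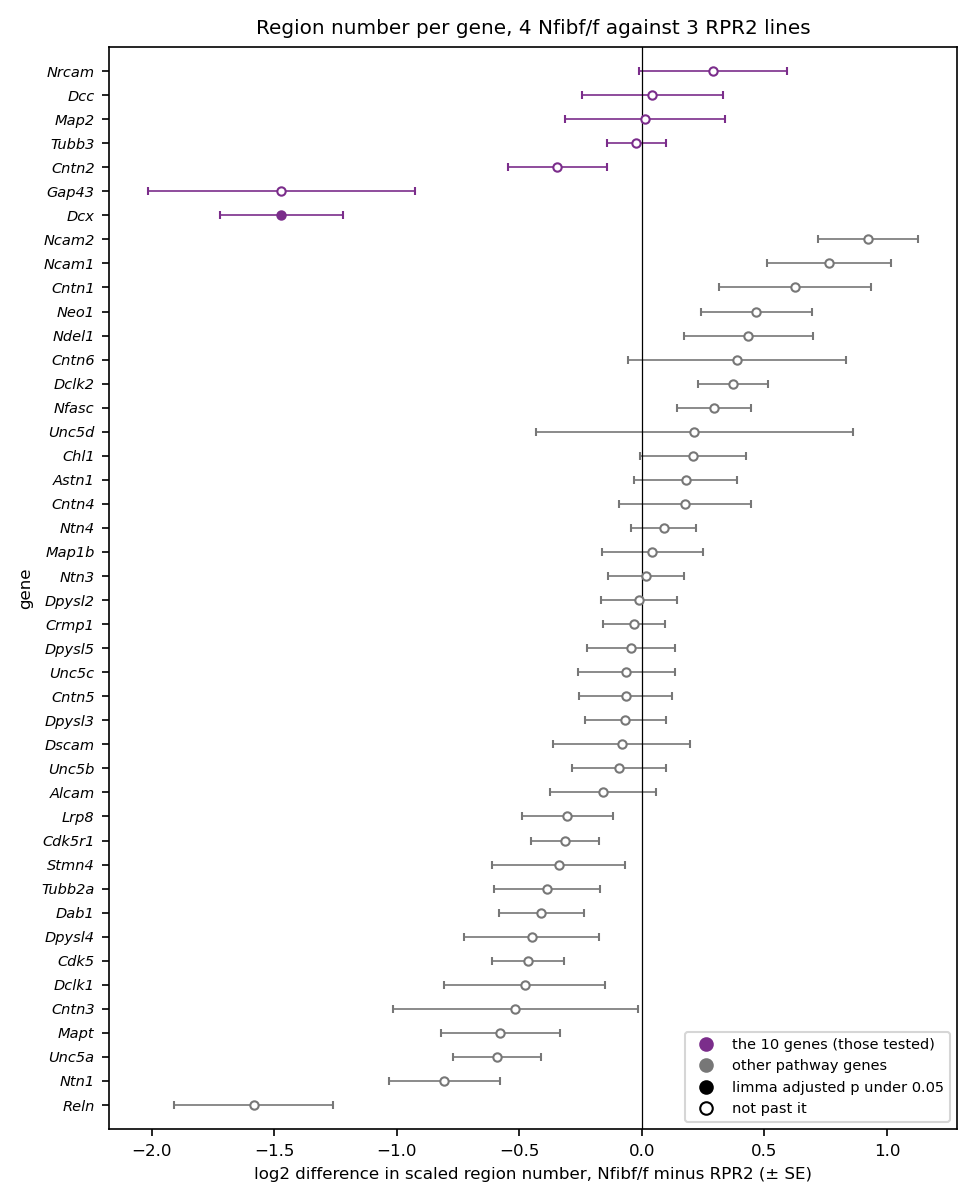
Log2 difference in scaled region number, Nfibf/f minus RPR2, with its SE (limma, 4 against 3 lines), for the 7 of the 10 genes that were tested (top, purple) and 37 other pathway genes (below, grey), filled where the adjusted p was under 0.05. Dcx, at -1.47, is the only filled point, and Gap43 lies at the same value with a wider error. Dcx passed the filter for testing only because of its RPR2 lines.

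Of the 23 genes with the gene-end pattern of Dcx, 15 were tested for region number. The 5 most like Dcx by the limma t in the same direction were Rhbdf2, Zfp536, Slc38a3, Phyhd1 and Cacna1h. Rhbdf2 differed by -0.77 ± 0.13 (SE; limma adjusted p = 0.0382). That call was lost in 17 of the 33 alternatives that tested it, with adjusted p-values up to 0.275. Zfp536 differed by -1.17 ± 0.23 (SE; limma adjusted p = 0.0527). Zfp536 held 14 regions in 1398M1, 13 in 1398P2, 9.0 in 1399M4 and 18.5 in 1399P1, against 26.0 in 1373M1, 32.0 in 12N1G and 30.5 in N2N1G. Slc38a3 (-0.77), Phyhd1 (-0.65) and Cacna1h (-0.50) had limma adjusted p-values of 0.0639, 0.0958 and 0.12.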

How the data were processed

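One narrowPeak list per library, 14 in all, was deposited by the authors. The tools named in the submitters' processing notes were MACS2, SAMtools, Picard, Bowtie2 and cutadapt 2.10, and the builds were mm10 and GRCm38. Their settings, and whether reads were shifted to where the transposase cut, are not given in sources used here. The fold enrichment of each summit, a ratio to local background, and its -log10 p-value and -log10 q-value were deposited by the authors, and the score beside them was not used. No list held a -log10 q below 1.3. Autosomes 1 to 19 with X and Y were analysed, at most 0.0858% of summits being left out per library.

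Peaks overlapping by at least 1 bp were merged in Python 3.11.15, and gene extents were read from RefSeq (GRCm38.p6) without exons, so no exon, intron or UTR is given. A member region is named within 1 kb of a gene end, where open in a single genotype, or past the rank test; others are singled out after their values were seen. All 10 genes are described, of the pathway those passing a test plus the 3 highest and 3 lowest differences, and the 5 genes most like Dcx. The 10 genes and the gene lists were chosen with earlier results of these data known. Some cell type markers are not reported here.

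Under R 4.3.3, limma 3.58.1 (trended empirical Bayes, Benjamini-Hochberg over all features tested, threshold 0.05) compared 4 Nfibf/f with 3 RPR2 lines, each the mean of 2 libraries: on log2 of region number scaled by the total of the line plus a pseudocount of 0.5, for genes averaging 3 or more regions, and on percentile ranks of fold enrichment over regions with a peak in all 14 libraries. The pseudocount shrinks differences where a gene has few regions. Pileup and local background were solved from fold enrichment and p by the Poisson formula MACS2 uses, and the lowest background is the floor. Read totals were not used here. The procedures were tested on simulated data. Region numbers were simulated there without added spread between lines, so those runs do not give the error rate of the calls reported here.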

Additional observations from a re-analysis of the deposited data

Results flagged for a closer look

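Values of the 4 Nfibf/f lines were screened for 1 line far from the other 3, over 20 sets of values, and 4 stood out. Chance flags about 1 in 20 sets of continuous values, a rate that does not hold for region numbers at Tubb3 and Fez1, where the other 3 lines were tied. At Tubb3, 1398P2 had 3.0 regions, 3 in each of its libraries, and the other Nfibf/f lines 4.0 each. At Fez1, 1398M1 had 3.5 regions and the others 2.0 each. The start of Map2 ranked at the 64.6 percentile of shared regions in 1399M4, and at 83.2 to 86.9 in the others. The start of Nrcam ranked at the 15.8 percentile in 1398M1, and at 7.6 to 9.0 in the others, just past the limit.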

How the results depend on the processing

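The count of 1 gene called on region number, Dcx, became 0 with replicate 2 of every line alone, with 12N1G and N2N1G as 1 line, with a filter of 1 region on average, with no scaling, with peaks of -log10 q of at least 5, with no flank, and with an equal number of peaks per library, where Dcx no longer passed the filter. Leaving out a library or a line in turn gave 0 to 1. The difference at Dcx lay between -1.92 and -1.15 in the 34 alternatives that tested it, with an adjusted p of 0.0332 to 0.28 apart from the liver lines alone, where RPR2 is a single line, and the cause of the lost calls was not tested. Over all genes the count of calls ranged from 1 to 333 against 80. The count of 1 gene end of a single genotype became 2 in the liver metastasis lines alone, Stmn2 joining Dcx, and 0 with an equal number of peaks per library, which drops weak peaks. It was 1 to 2 on leaving out a library or line, Gap43 joining without 1398M1. The 3 regions of a single genotype became 7 with replicate 2 of every line alone, 15 in the liver metastasis lines alone and 5 when a peak in 1 of 2 libraries was enough, and 3 to 6 on leaving out a library or line, the wider counts following from fewer or looser conditions, and 2 with an equal number of peaks per library, where the Map2 region was lost. Over all regions the count ranged from 1631 to 13923 against 2209. The counts of 0 for regions away from gene ends and for ranks stayed 0 under every alternative run, while calls over all features ranged from 0 to 173 and from 0 to 483.

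Signs changed for small differences. Tubb3 (-0.02) became 0.24 with replicate 2 of every line alone and 0.011 in the fit of libraries with the line as a block. It was 0.023 with no scaling, 0.0019 with a 20 kb flank and -0.12 to 0.12 on leaving out a library or line. Map2 (0.01) became -0.10 with replicate 1 of every line alone, -0.17 with the lymph node lines as 1 and -0.51 in the liver lines, and -0.20 to 0.39 on leaving out a library or line. Dcc (0.04) became -0.16 with replicate 2 of every line alone, -0.14 with the lymph node lines as 1 and -0.48 in the liver lines. It was -0.0083 in the fit of libraries, -0.027 with the stricter q and -0.16 to 0.42 on leaving out a library or line. The call of Cdh5 was lost in 5 of the 21 alternatives that tested it, with adjusted p-values up to 0.0912. In the other alternatives Cdh5 did not pass the filter on region number and was not tested. Cntn1 became -0.27 in the liver lines and Cacna1h 0.018 with an equal number of peaks.

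The replicate numbers did not pair the libraries: differences between replicates correlated between lines at -0.122 to 0.149 over 21 pairs of lines. A further limma fit took the 14 libraries as values, with the line as a block and the replicate number as a covariate. It called 1 of the 10 genes on region number, Dcx at -1.64 with a limma adjusted p of 0.0378. Ncam2, Reln, Ntn1 and Unc5a were called as well in that fit. None of those further genes was called with the line as the unit, and libraries of a line are not independent. The alternative in which the midpoint of a region must lie in the window was chosen after seeing the data and gave -1.47 for Dcx with an adjusted p of 0.0391. Depth limits the absence of a peak, most of all in replicate 2 of 1398P2.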
